A study of Mus musculus with 12 samples.

Results

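Glucose is carried into the cell, broken down to pyruvate, and then passed out as lactate, into the mitochondrion or, from an early intermediate, into the pentose phosphate pathway. The 35 mouse genes described here encode these steps: glucose and lactate transporters (4 genes), the preparatory enzymes of glycolysis from hexokinase to triosephosphate isomerase (9), the payoff enzymes from glyceraldehyde phosphate dehydrogenase to pyruvate kinase (7), lactate dehydrogenases (2), enzymes that set fructose 2,6-bisphosphate (3), pyruvate dehydrogenase kinases (4), E1 subunits of pyruvate dehydrogenase (2) and pentose phosphate enzymes (4). They were chosen by name for their place in the pathway, but with earlier results of these data known. All 35 were found among the 37583 genes of the count tables, and all 35 passed the filter on low counts that left 16240 genes for testing.

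Poly-A-selected RNA was sequenced from 6 groups of cells of the strain 129SV/Jae/C57BL6J, with 2 libraries a group. Mouse embryonic fibroblasts (MEF), the starting cells, were grown in MEF media. From cultures undergoing reprogramming in ES media with dox and AA, 4 populations that carried SSEA1, a carbohydrate antigen of the cell surface, were sorted by flow cytometry. On day 3 these were d3_Eff (SSEA1+CD73+Sca1-) and d3_Ineff (SSEA1+CD73-Sca1+), and on day 6 d6_Eff (SSEA1+EpCAM+Sca1-) and d6_Ineff (SSEA1+EpCAM-Sca1+). The end point was induced pluripotent stem cells (iPSC) in ES media. MEF and iPSC carry an unexplained 3/4 in their titles, and Eff and Ineff are the labels' own short names. Medium thus differed in the comparisons with MEF and with iPSC, where its effect on these genes cannot be told apart from that of the cell state, and was the same for the 4 sorted populations by the labels. The labels give neither the reprogramming factors and their promoter, nor how the iPSC lines were derived, nor whether a group's libraries came from separate cultures, so the spread behind each p-value may be technical.

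In cells with little oxygen, the hypoxia-inducible factors (HIF) are stable and raise transcription of many glycolytic genes, of the lactate exporter Slc16a3 and of Pdk1, whose product turns off pyruvate dehydrogenase. Myc proteins raise an overlapping set. Cultured pluripotent stem cells are known for a high rate of glycolysis. Several steps are catalysed by alternative isoforms encoded by separate genes, which differ in affinity, regulation or tissue.

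Reads assigned to genes numbered between 9284060 and 22763548 per library. A pair of libraries stood apart by their unique reads that fell in no gene: 47.2% for MEF replicate 2 and 24.1% for d6_Eff replicate 2, where the remaining 10 had 5.10% to 11.7%. The sorted surface markers followed the gates, with Nt5e (encoding CD73) at 41.5 and 32.9 counts per 1000000 (CPM, scaled between libraries) in d3_Eff against 2.54 and 4.12 in d3_Ineff, and Epcam at 947 and 994 in d6_Eff against 27.7 and 27.8 in d6_Ineff. The 10 pluripotency markers summed to 8356 to 8763 CPM in iPSC and to 2.27 to 4.61 in MEF. The 10 fibroblast markers summed to 18893 to 56355 CPM in MEF, 4963 to 5424 in d3_Eff, 8298 to 8859 in d3_Ineff, 785 to 1035 in d6_Eff, 5615 to 5828 in d6_Ineff and 666 to 667 in iPSC, so this sum differed with the groups compared below and between the 2 MEF libraries. The 10 epithelial markers summed to 8.93 to 43.6 CPM in the MEF and day 3 libraries, 2010 to 2156 in d6_Eff, 97.0 to 98.4 in d6_Ineff and 1045 to 1074 in iPSC, the 10 endothelial ones to 9.03 to 11.3 in MEF and 92.1 to 173 elsewhere, and the 10 leukocyte ones to 2.1 to 19.5 in all 12 libraries. The part of these markers in the results was not tested, and in bulk RNA fewer cells with a transcript and less of it per cell cannot be told apart.

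The glucose metabolism genes were low in the middle of the course and high at its end. The 35 genes together held 1.51% and 1.38% of the gene counts in the MEF libraries, 0.964% and 1.00% in d3_Eff, 0.948% and 0.882% in d3_Ineff, 0.979% and 0.940% in d6_Eff, 0.832% and 0.853% in d6_Ineff, and 3.09% and 3.12% in iPSC. All 8 sorted libraries lay below both MEF libraries, and both iPSC libraries lay above every other library. Of the 35 genes, 20 (57.1%) had their highest mean in iPSC and 27 (77.1%) their lowest in a sorted group, against 30.6% and 41.2% of all 16240 genes tested. Both held for 16 genes (45.7%), against 15.1% of all genes. The test for any difference among the 6 groups (edgeR quasi-likelihood F-test, Benjamini-Hochberg adjusted p under 0.05, the threshold for a call throughout) called 31 of the 35, against 59.5% of all genes tested, and left out Hk1, Pfkfb2, Pfkfb4 and Pgd.

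**Figure D1:**
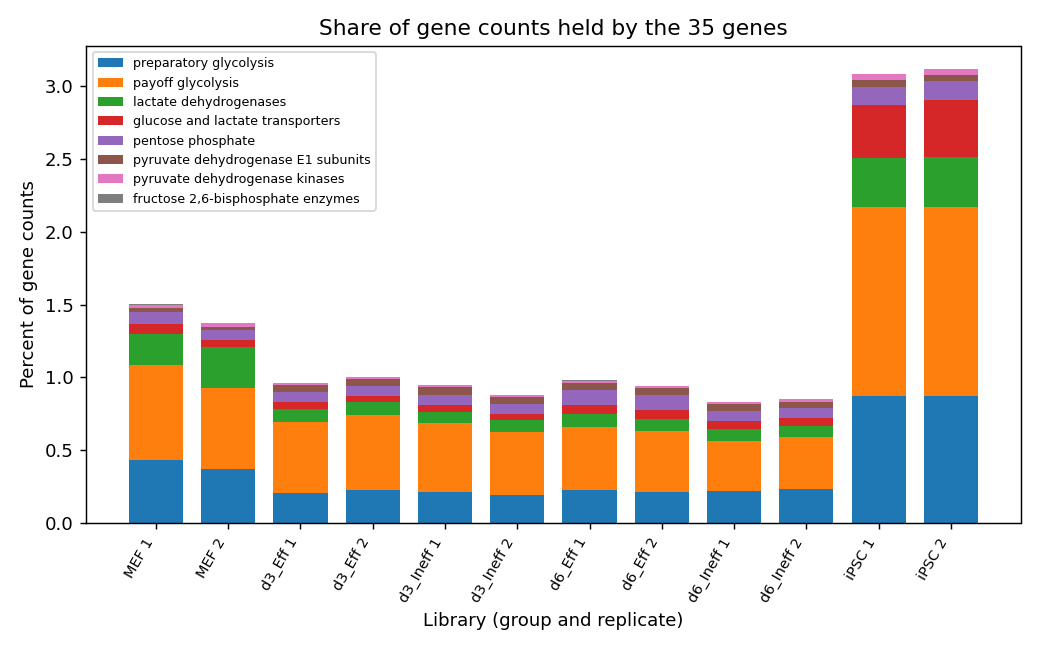
Percent of gene counts held by the 35 genes in each of the 12 libraries (vertical axis, percent; bars stacked by role in the pathway). The 8 sorted libraries sit between 0.832% and 1.00%, the 2 MEF libraries at 1.51% and 1.38% and the 2 iPSC libraries at 3.09% and 3.12%.

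The payoff enzymes held the largest part of this share of any role in every group. They took 0.6% ± 0.0671 of gene counts in MEF (SD, n = 2 here and below), 0.499% ± 0.0179 in d3_Eff, 0.45% ± 0.0304 in d3_Ineff, 0.427% ± 0.0115 in d6_Eff, 0.352% ± 0.00556 in d6_Ineff and 1.3% ± 0.00213 in iPSC. The lactate dehydrogenases held 0.0854% ± 0.00236 in d6_Eff and 0.0774% ± 0.00347 in d6_Ineff, against 0.249% ± 0.0495 in MEF, and were back at 0.339% ± 0.00957 in iPSC. The pentose phosphate genes held 0.102% ± 0.000781 in d6_Eff and 0.0714% ± 0.00138 in d6_Ineff, against 0.0759% ± 0.0135 in MEF. Pyruvate dehydrogenase turns pyruvate into acetyl-CoA within the mitochondrion. Its 2 E1 subunits were higher on day 3, with 0.0502% ± 0.0044 in d3_Eff and 0.053% ± 0.0034 in d3_Ineff against 0.024% ± 0.0021 in MEF. They held 0.0457% ± 0.0011 in d6_Eff, 0.0445% ± 0.00297 in d6_Ineff and 0.0464% ± 0.00135 in iPSC.

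**Figure D2:**
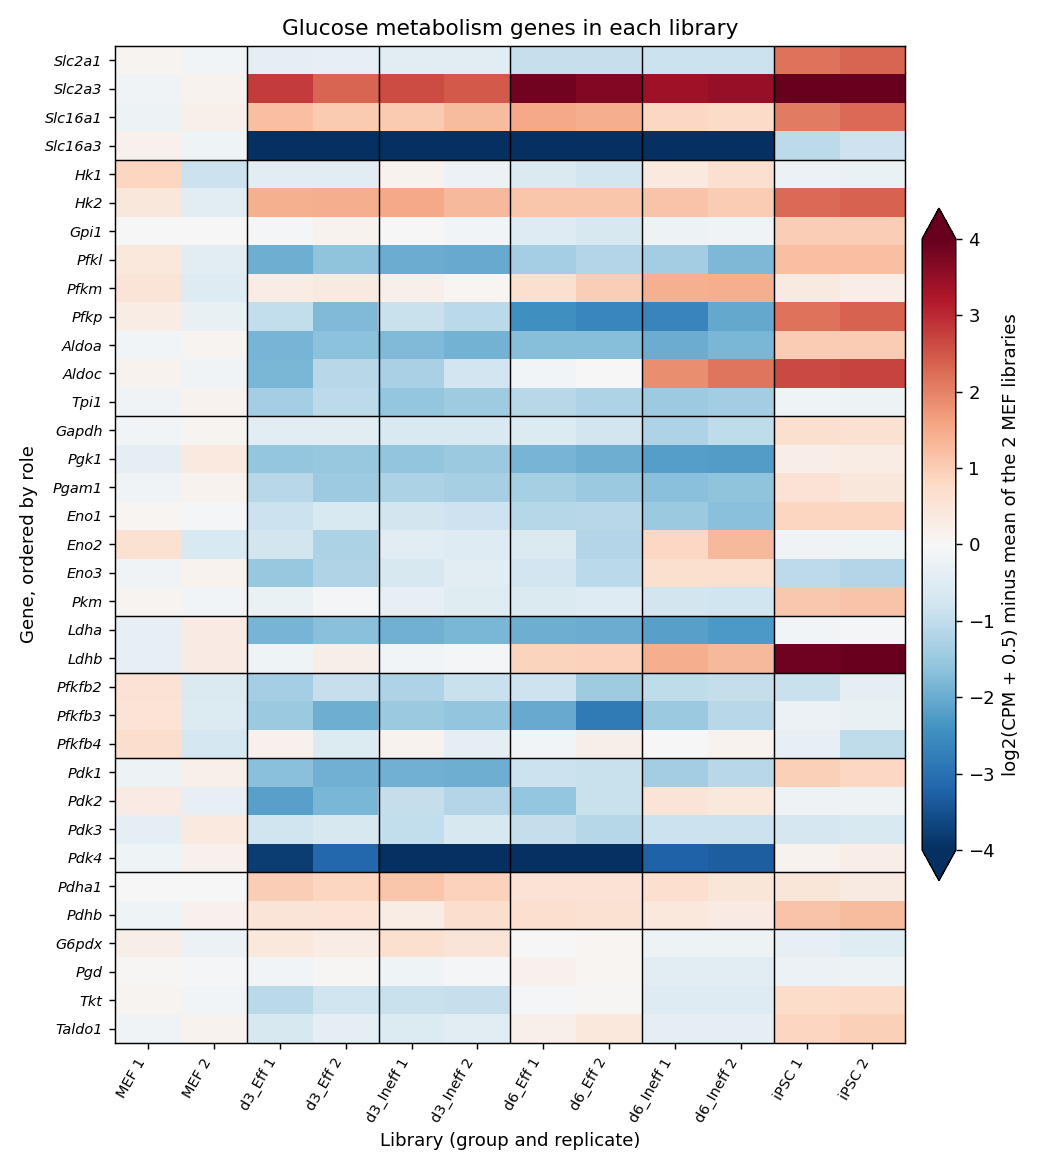
Level of each of the 35 genes (rows, by role) in each library (columns), as log2(CPM + 0.5) minus the mean of the 2 MEF libraries, with the colour scale ending at 4 in either direction. Slc16a3 and Pdk4 are the darkest blue in the sorted groups, Slc2a3 is red in every group after MEF, and Ldhb is dark red in iPSC.

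Between iPSC and MEF, 18 of the 35 genes were higher in iPSC and 3 lower, against 26.0% of all genes called higher and 26.7% lower (52.7% in all). The median log2 fold change of the 35 was 0.51, and that of all genes 0.04. Of these calls, 16 higher and 1 lower held under all 18 alternative fits. The glucose transporter gene Slc2a3, which encodes a carrier of high affinity, had 18.2 and 22.3 CPM in MEF, 142 and 103 in d3_Eff, 125 and 112 in d3_Ineff, 298 and 269.7 in d6_Eff, 217 and 233 in d6_Ineff and 1879 and 1952 in iPSC. Every library of a later stage lay above all those of an earlier one, with the populations of a day pooled. Its log2 fold change in iPSC over MEF was 6.57 ± 0.25 (SE), adjusted p = 2.36e-08. Slc2a1, the ubiquitous carrier, had 1245 and 1394 CPM in iPSC and 300.1 and 255 in MEF, a log2 fold change of 2.25 ± 0.17 (SE), adjusted p = 1.22e-06.

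Further down the pathway, the preparatory enzymes were called higher in iPSC than in MEF in 6 of 9 cases and lower in none. Aldoa, the main aldolase, had 4775 and 4815 CPM in iPSC and 2184 and 2549 in MEF (1.02 ± 0.19 (SE), adjusted p = 9.41e-04). Pfkp, the platelet isoform of phosphofructokinase, was at 298 and 337 CPM in iPSC and 80.6 and 52.6 in MEF (2.25 ± 0.30 (SE), adjusted p = 9.50e-05). The exons of Pfkp overlap those of Pitrm1 on the opposite strand, and the counts ignore strand, so reads of the overlap cannot be assigned. Of the 7 payoff enzymes, 4 were higher (Gapdh, Pgam1, Eno1 and Pkm) and 1 was lower (Eno3, -1.12 ± 0.21). Pkm, pyruvate kinase of most non-liver tissues, had 5643 and 5906 CPM in iPSC and 2877 and 2502 in MEF. The calls of Gapdh and Pgam1 were lost without either iPSC replicate, among other libraries, with adjusted p up to 0.0937 and 0.180.

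At the lactate end of the pathway the genes went separate ways. Ldha, the lactate dehydrogenase that favours lactate formation, had 2695 and 2809.5 CPM in iPSC and 2293 and 3641 in MEF, and these ranges overlap. Its partner Ldhb, which favours pyruvate, had 533 and 592 CPM in iPSC and 28.6 and 44.7 in MEF (3.95 ± 0.25 (SE), adjusted p = 3.49e-07). The lactate exporter gene Slc16a3 (MCT4) was lower in iPSC (-0.95 ± 0.25 (SE), adjusted p = 0.00866), a call lost without iPSC replicate 1 (adjusted p = 0.0819), and Slc16a1 (MCT1), which carries lactate either way, was higher (2.19 ± 0.19 (SE), adjusted p = 3.41e-06). Of the pyruvate dehydrogenase kinases, Pdk1 was higher (0.89 ± 0.19) and Pdk3 lower (-0.69 ± 0.24), and the Pdk3 call was lost without MEF replicate 2 or either iPSC replicate (adjusted p up to 0.227). Of the pentose phosphate genes, Tkt and Taldo1, the enzymes of the non-oxidative arm, were higher in iPSC (0.75 ± 0.17 and 0.90 ± 0.18). G6pdx and Pgd, the NADPH-producing enzymes of the oxidative arm, were not called (-0.43 ± 0.19 and -0.21 ± 0.15).

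**Figure D3:**
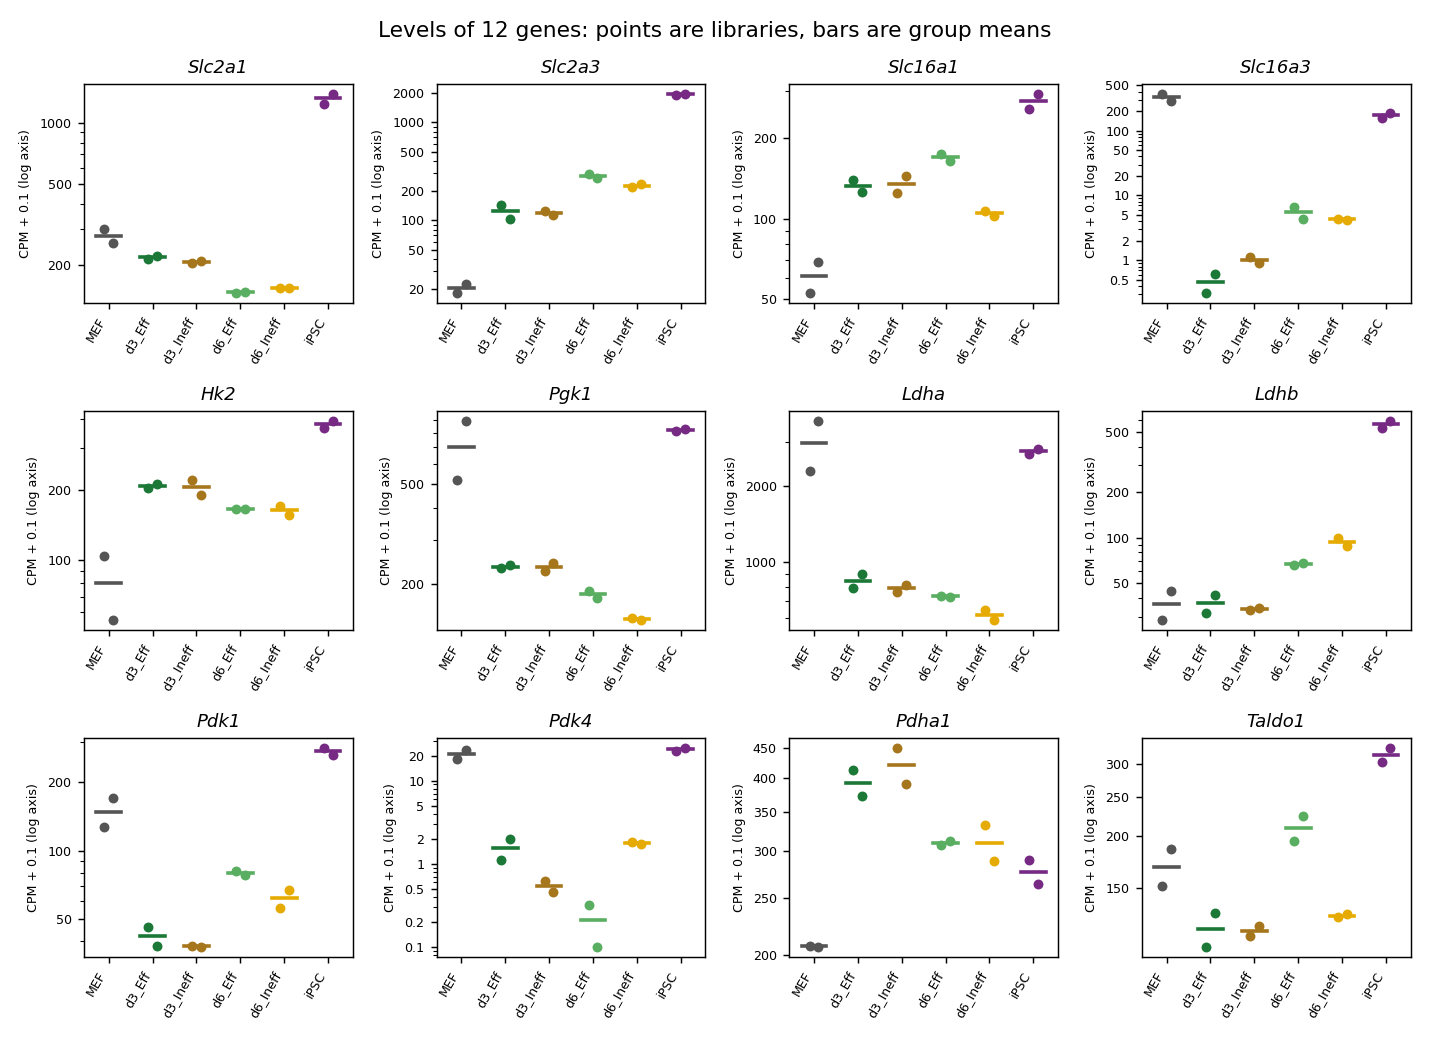
Levels of 12 of the genes (CPM + 0.1, log axes with a range of their own per panel) in the 6 groups, with a point per library and a bar at the group mean. Slc16a3, Pgk1, Ldha and Pdk1 are low in all 4 sorted groups and high at both ends, whereas Slc2a3, Slc16a1 and Hk2 are lowest in MEF.

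Each sorted population was set against MEF to follow the genes during reprogramming; these 4 comparisons share their MEF libraries. On day 3, 5 genes were higher and 19 lower in d3_Eff than in MEF, against 18.0% and 18.6% of all genes (36.5% in all), and 5 higher and 18 lower in d3_Ineff, against 15.0% in each direction (30.0% in all). On day 6, 6 were higher and 20 lower in d6_Eff, against 20.9% and 21.7% (42.6% in all), and 8 higher and 18 lower in d6_Ineff, against 15.6% and 15.2% (30.8% in all). The median log2 fold change of the 35 genes was -0.77 in d3_Eff, -0.72 in d3_Ineff, -0.91 in d6_Eff and -0.52 in d6_Ineff, where that of all genes was between 0 and 0.03. Under all 18 alternatives, 4 higher and 15 lower calls held in d3_Eff, 4 and 11 in d3_Ineff, 3 and 14 in d6_Eff, and 4 and 13 in d6_Ineff. The count for d3_Ineff fell without d3_Ineff replicate 1, and that for d6_Ineff without d6_Ineff replicate 1. The number of all genes called fell with them.

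Slc16a3 showed the widest range of the 35 genes, 899-fold between its highest and lowest group mean. It had 374 and 289 CPM in MEF, 0.217 and 0.52 in d3_Eff, 1.01 and 0.815 in d3_Ineff, 6.59 and 4.29 in d6_Eff, 4.29 and 4.03 in d6_Ineff and 159 and 185 in iPSC. The 4 day 3 libraries held only 5 to 23 reads of it each. Its log2 fold change over MEF was -9.83 ± 0.40 (SE), adjusted p = 5.82e-08 in d3_Eff, -8.50 ± 0.37 (SE), adjusted p = 9.35e-08 in d3_Ineff, -5.92 ± 0.32 (SE), adjusted p = 2.08e-07 in d6_Eff and -6.32 ± 0.32 (SE), adjusted p = 2.37e-07 in d6_Ineff.

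The core enzyme genes called lower than MEF in all 4 sorted groups were Pfkl, Pfkp, Aldoa, Tpi1, Pgk1, Pgam1, Eno1 and Ldha, together with Pfkfb3, Pdk1, Pdk3 and Pdk4. Gpi1, Gapdh and Pkm, also core enzymes, are not on this list. Gpi1 had means of 463 CPM in MEF, 482 in d3_Eff, 441 in d3_Ineff, 311 in d6_Eff and 414 in d6_Ineff. The share of all genes called lower in all 4 comparisons, which have their MEF libraries in common, was not determined, so the list is a description only. Ldha had 2293 and 3641 CPM in MEF, 792 and 900.1 in d3_Eff, 765 and 814 in d3_Ineff, 738 and 732 in d6_Eff, 645 and 592 in d6_Ineff and 2695 and 2809.5 in iPSC. All 8 sorted libraries lay below every MEF and iPSC library, with log2 fold changes of -1.81 ± 0.23 in d3_Eff, -1.91 ± 0.24 in d3_Ineff, -2.01 ± 0.24 in d6_Eff and -2.26 ± 0.24 in d6_Ineff. Pgk1, phosphoglycerate kinase, the first enzyme of the pathway to yield ATP, had 517 and 893 CPM in MEF, 230.4 and 238 in d3_Eff, 226 and 241 in d3_Ineff, 187 and 176 in d6_Eff, 146 and 144 in d6_Ineff and 810.3 and 826 in iPSC. The 2 MEF libraries differed widely from each other, yet both stood above the 8 sorted ones. Pdk1 had 127 and 169.8 CPM in MEF, 46.2 and 38.1 in d3_Eff, 38.0 and 37.5 in d3_Ineff, 81.6 and 78.3 in d6_Eff, 55.8 and 67.2 in d6_Ineff and 284 and 264 in iPSC. Here the day 6 libraries lay above all 4 day 3 libraries and below both ends of the course. In d3_Ineff the calls of Pfkp and Eno1 were lost without either d3_Ineff replicate (adjusted p up to 0.129 and 0.0844), and that of Pfkp also without MEF replicate 1. The call of Eno1 in d3_Eff was lost without d3_Eff replicate 1 (0.0748), and that of Pfkfb3 in d6_Ineff without MEF replicate 1 or d6_Ineff replicate 1 (up to 0.109). The Pdk3 calls of d3_Eff, d3_Ineff and d6_Ineff were lost without either library of that group, and in d3_Eff also without MEF replicate 2 (up to 0.161).

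Against this fall, 4 genes were higher than MEF in every sorted group: Slc2a3, Slc16a1, Hk2 and Pdha1. The share of all genes called higher in all 4 comparisons was not determined either, so this list too is a description only. Hk2, the inducible hexokinase that binds mitochondria, had 104 and 55.7 CPM in MEF, 204 and 212 in d3_Eff, 221 and 189.7 in d3_Ineff, 165 and 165 in d6_Eff, 169.8 and 156 in d6_Ineff and 366 and 394 in iPSC. The log2 fold change over MEF was 1.37 ± 0.25 in d3_Eff, 1.35 ± 0.25 in d3_Ineff, 1.04 ± 0.25 in d6_Eff and 1.02 ± 0.25 in d6_Ineff, the last lost without d6_Ineff replicate 1 (adjusted p = 0.0539). Slc16a1 had 52.7 and 68.8 CPM in MEF, 139 and 125 in d3_Eff, 125 and 145 in d3_Ineff, 174 and 165 in d6_Eff, 107 and 102 in d6_Ineff and 258 and 294 in iPSC. Both MEF libraries were the lowest of the 12, and the d6_Ineff call was lost without either d6_Ineff replicate (adjusted p up to 0.0789). Pdha1, the catalytic alpha subunit of E1, was at 412 and 372 CPM in d3_Eff and 450.2 and 391 in d3_Ineff, against 207 and 206 in MEF (0.92 ± 0.17 (SE), adjusted p = 0.00124 and 1.03 ± 0.17 (SE), adjusted p = 8.44e-04). Its day 6 calls (0.58 ± 0.17 in d6_Eff and 0.59 ± 0.17 in d6_Ineff) were lost without any 1 of the day 6 libraries, of the d3_Ineff libraries or d3_Eff replicate 1 (adjusted p up to 0.164 and 0.215).

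The promoters of genes that fell in all 4 sorted groups, and of Hk2, which rose, are shown because HIF binds a short core, ACGTG or GCGTG, in the promoters of many glycolytic genes. These 5 genes were picked after their values were seen. The sequences are the 250 bases before a RefSeq transcription start (mouse build GRCm38.p6), written 5′ to 3′ along the gene, with ACGTG or GCGTG on either strand in capitals (CACGT or CACGC on the strand shown). Ldha and Pdk1 have 2 windows each, and the one with more matches is shown. For the Ldha window shown, the reference sequence past its start was not found in a GENCODE M21 transcript of Ldha. That of the other windows shown was found in a transcript of their gene. The other Ldha window passed this check and held 1 match and no CACGTG.
Slc16a3 (chr11:120948817-120949066, plus strand): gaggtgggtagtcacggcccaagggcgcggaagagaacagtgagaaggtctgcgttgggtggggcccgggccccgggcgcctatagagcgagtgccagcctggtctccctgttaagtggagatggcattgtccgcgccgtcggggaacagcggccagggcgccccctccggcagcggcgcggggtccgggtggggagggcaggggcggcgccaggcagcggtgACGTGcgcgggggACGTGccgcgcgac
Pgk1 (chrX:106186850-106187099, plus strand): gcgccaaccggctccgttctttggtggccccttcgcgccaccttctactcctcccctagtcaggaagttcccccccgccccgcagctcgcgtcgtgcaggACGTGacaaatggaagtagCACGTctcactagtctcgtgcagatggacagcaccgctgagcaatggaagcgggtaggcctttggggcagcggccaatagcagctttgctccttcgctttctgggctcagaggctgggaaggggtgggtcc
Ldha (chr7:46845554-46845803, plus strand): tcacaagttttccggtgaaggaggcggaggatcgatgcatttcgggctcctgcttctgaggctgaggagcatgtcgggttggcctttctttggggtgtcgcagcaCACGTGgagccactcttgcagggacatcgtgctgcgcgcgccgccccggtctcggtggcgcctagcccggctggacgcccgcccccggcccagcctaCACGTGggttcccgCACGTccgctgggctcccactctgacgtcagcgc
Pdk1 (chr2:71872974-71873223, plus strand): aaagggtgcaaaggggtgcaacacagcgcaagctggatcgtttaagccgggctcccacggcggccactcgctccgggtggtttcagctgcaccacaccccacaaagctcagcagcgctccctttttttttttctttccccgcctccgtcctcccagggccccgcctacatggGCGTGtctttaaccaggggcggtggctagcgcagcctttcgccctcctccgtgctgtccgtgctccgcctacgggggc
Hk2 (chr6:82774455-82774704, minus strand): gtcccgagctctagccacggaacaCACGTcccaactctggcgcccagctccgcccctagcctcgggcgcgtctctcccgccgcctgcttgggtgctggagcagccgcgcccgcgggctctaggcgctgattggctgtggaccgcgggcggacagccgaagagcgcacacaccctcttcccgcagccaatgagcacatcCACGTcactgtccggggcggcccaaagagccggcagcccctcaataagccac
The Slc16a3, Pgk1 and Hk2 windows hold 2 matches each, that of Ldha 5, which include both strands of its 2 CACGTG letters (the E-box that Myc and related proteins bind), and that of Pdk1 holds 1. RefSeq windows were found for 34 of the 35 genes, 51 windows in all, and 41 of these (80.4%) held ACGTG or GCGTG, against 44% of the windows of all protein-coding genes and 38.6% of all 32851 windows. Windows of a gene can overlap, as for Eno1, Aldoa and Pfkm, so a match can count more than once. CACGTG, which contains ACGTG on both strands, stood in 11.8% of the 51 windows, against 6.63% and 6.02%. The median GC content was 60.4% in the 51 windows, 55.6% in protein-coding windows and 52.4% in all, and its part in the match counts was not tested. Windows of genes that rose and of genes that fell both held the letters, and a match is no evidence that a factor was bound.

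Between day 3 and day 6, 10 of the genes changed in each population. In d6_Eff 7 were higher and 3 lower than in d3_Eff, against 4.24% and 4.87% of all genes (9.11% in all), and in d6_Ineff 7 were higher and 3 lower than in d3_Ineff, against 3.19% and 1.23% (4.42% in all). In both populations Slc2a3, Slc16a3, Aldoc and Ldhb were higher on day 6 and Pfkp was lower. Aldoc, an aldolase best known from brain, had 12.3 and 9.91 CPM in MEF, 2.77 and 4.84 in d3_Eff, 4.2 and 6.29 in d3_Ineff, 10.1 and 11.3 in d6_Eff, 41.1 and 50.3 in d6_Ineff and 72.2 and 74.9 in iPSC. Its day 6 over day 3 log2 fold change was 1.50 ± 0.30 (SE), adjusted p = 0.010 in the Eff and 3.12 ± 0.31 (SE), adjusted p = 4.74e-04 in the Ineff population, the first lost without d3_Eff replicate 1 or d6_Eff replicate 2 (adjusted p up to 0.106). Ldhb had 28.6 and 44.7 CPM in MEF, 31.7 and 41.9 in d3_Eff, 33.4 and 34.2 in d3_Ineff, 66.4 and 67.8 in d6_Eff, 99.0 and 88.1 in d6_Ineff and 533 and 592 in iPSC. Day 3 libraries overlapped with MEF, and both day 6 groups stood above them.

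Day 6 also brought changes called in 1 population alone, though the difference between the populations was tested and not called for any of these genes but Pdk4. In d6_Eff, Tkt (0.94 ± 0.17), Taldo1 (0.81 ± 0.18) and Pdk1 (0.92 ± 0.19) were higher, and Gpi1 (-0.63 ± 0.16) and Pdk4 (-3.46 ± 0.70) lower, than in d3_Eff. In d6_Ineff, Pfkm (1.31 ± 0.28), Eno3 (1.18 ± 0.21) and Pdk2 (1.60 ± 0.35) were higher, and Eno1 (-0.79 ± 0.19) and G6pdx (-0.79 ± 0.19) lower, than in d3_Ineff. These counts are not stable, and with 1 library left out the number of all genes called moved in the same direction as they did. For d6_Eff over d3_Eff, 3 genes were called without d3_Eff replicate 1 or d6_Eff replicate 2, 5 without d6_Eff replicate 1 and 6 without d3_Eff replicate 2. For d6_Ineff over d3_Ineff, 1 gene was called without d3_Ineff replicate 2, 2 without d3_Ineff replicate 1 or d6_Ineff replicate 1, 3 without d6_Ineff replicate 2, 4 without either iPSC replicate and 19 without either MEF replicate. Only Slc2a3 and Slc16a3 in d6_Eff, and Aldoc in d6_Ineff, kept their call under all 18 alternatives.

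On day 3 no difference in these genes between Eff and Ineff cells was detectable past the threshold. By edgeR's quasi-likelihood test 0 of the 35 differed between d3_Eff and d3_Ineff, against 0.400% of all genes (0.160% higher and 0.240% lower). At an unadjusted p under 0.05 there were 4 (Eno3, Slc16a3, Pdk2 and Pdk4), against 8.11% of all genes. DESeq2 called 1 of the 35, Eno3, and 445 of all 16240 genes. Without either MEF replicate edgeR also called Eno3. This muscle-type enolase had 17.4 and 21.9 CPM in d3_Eff and 32.6 and 37.1 in d3_Ineff, which do not overlap (-0.83 ± 0.21 (SE), adjusted p = 0.151). Slc16a3 (-1.33 ± 0.43), Pdk2 (-1.08 ± 0.36) and Pdk4 (1.67 ± 0.57) had log2 differences of more than 1 that were not called (adjusted p = 0.321, 0.333 and 0.347).

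By day 6, 3 of the genes were higher and 5 lower in d6_Eff than in d6_Ineff, against 5.38% and 9.25% of all genes (14.6% in all). The lower ones were isoform and regulator genes. Aldoc had 10.1 and 11.3 CPM in d6_Eff and 41.1 and 50.3 in d6_Ineff (-2.10 ± 0.30 (SE), adjusted p = 0.00103). Eno3 had 29.8 and 24.0 CPM in d6_Eff and 79.3 and 79.1 in d6_Ineff (-1.55 ± 0.21 (SE), adjusted p = 8.73e-04). The neuronal enolase gene Eno2 had 3.25 and 2.0 CPM in d6_Eff and 9.5 and 13.4 in d6_Ineff (-2.12 ± 0.49 (SE), adjusted p = 0.015). Summed over 10 genes, skeletal muscle markers were at 14.6 to 17.1 CPM in d6_Eff and 8.81 to 8.92 in d6_Ineff, but single markers went separate ways. Of the 5 tested, Des (desmin), which made up most of the sum in d6_Eff, was higher in d6_Eff (1.63 ± 0.44 (SE), adjusted p = 0.0309), and Acta1 (skeletal muscle actin), like Eno3, was lower (-1.92 ± 0.44 (SE), adjusted p = 0.0144). These 2 are the called ones of the list, and the part of muscle or fibroblast transcripts in the Eno3 difference was not tested. Pdk2 was at 3.7 and 6.11 CPM in d6_Eff and 17.0 and 15.8 in d6_Ineff (-1.75 ± 0.35 (SE), adjusted p = 0.00732). Pdk4, the kinase raised by fasting in many tissues, had 18.3 and 23.0 CPM in MEF, 0.997 and 1.87 in d3_Eff, 0.525 and 0.362 in d3_Ineff, 0.223 and 0 in d6_Eff, 1.74 and 1.64 in d6_Ineff and 22.6 and 24.6 in iPSC. In d6_Eff these were 5 and 0 reads, where a count of 0 in replicate 2 allows up to 0.176 CPM (3 reads, counting error only), and its log2 fold change over d6_Ineff was -3.70 ± 0.69 (SE), adjusted p = 0.00496.

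The genes higher in d6_Eff than in d6_Ineff were Slc16a1 and a pair of pentose phosphate genes. Slc16a1 had 174 and 165 CPM in d6_Eff and 107 and 102 in d6_Ineff (0.70 ± 0.18 (SE), adjusted p = 0.0259). Taldo1, transaldolase, had 195 and 224 CPM in d6_Eff and 127 and 129 in d6_Ineff (0.71 ± 0.18 (SE), adjusted p = 0.0209). Pgd, phosphogluconate dehydrogenase, was at 289.8 and 271 CPM in d6_Eff and 192 and 188 in d6_Ineff (0.56 ± 0.15 (SE), adjusted p = 0.0305). In the quasi-likelihood F-test for any difference among the 6 groups Pgd was not called (adjusted p = 0.0743). Tkt was at 363 and 392 CPM in d6_Eff and 261 and 265 in d6_Ineff and just missed the threshold (0.52 ± 0.17 (SE), adjusted p = 0.0611). G6pdx had 88.4 and 91.7 CPM in d6_Eff and 75.3 and 75.3 in d6_Ineff and was not called. Aldoc, Eno3 and Pdk4 kept their call under all 18 alternatives. Slc16a1 and Taldo1 lost it without any 1 of the day 6 libraries, of the d3_Ineff libraries or d3_Eff replicate 1 (adjusted p up to 0.228 and 0.234), Pgd without any 1 of the sorted or iPSC libraries (up to 0.278), Eno2 without d6_Ineff replicate 2 or d6_Eff replicate 2 (up to 0.122) and Pdk2 without d6_Eff replicate 1 (0.0532). The count of 8 rose without either MEF replicate and fell without any 1 library of the other groups. In each of these fits the number of all genes called moved in the same direction.

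**Figure D4:**
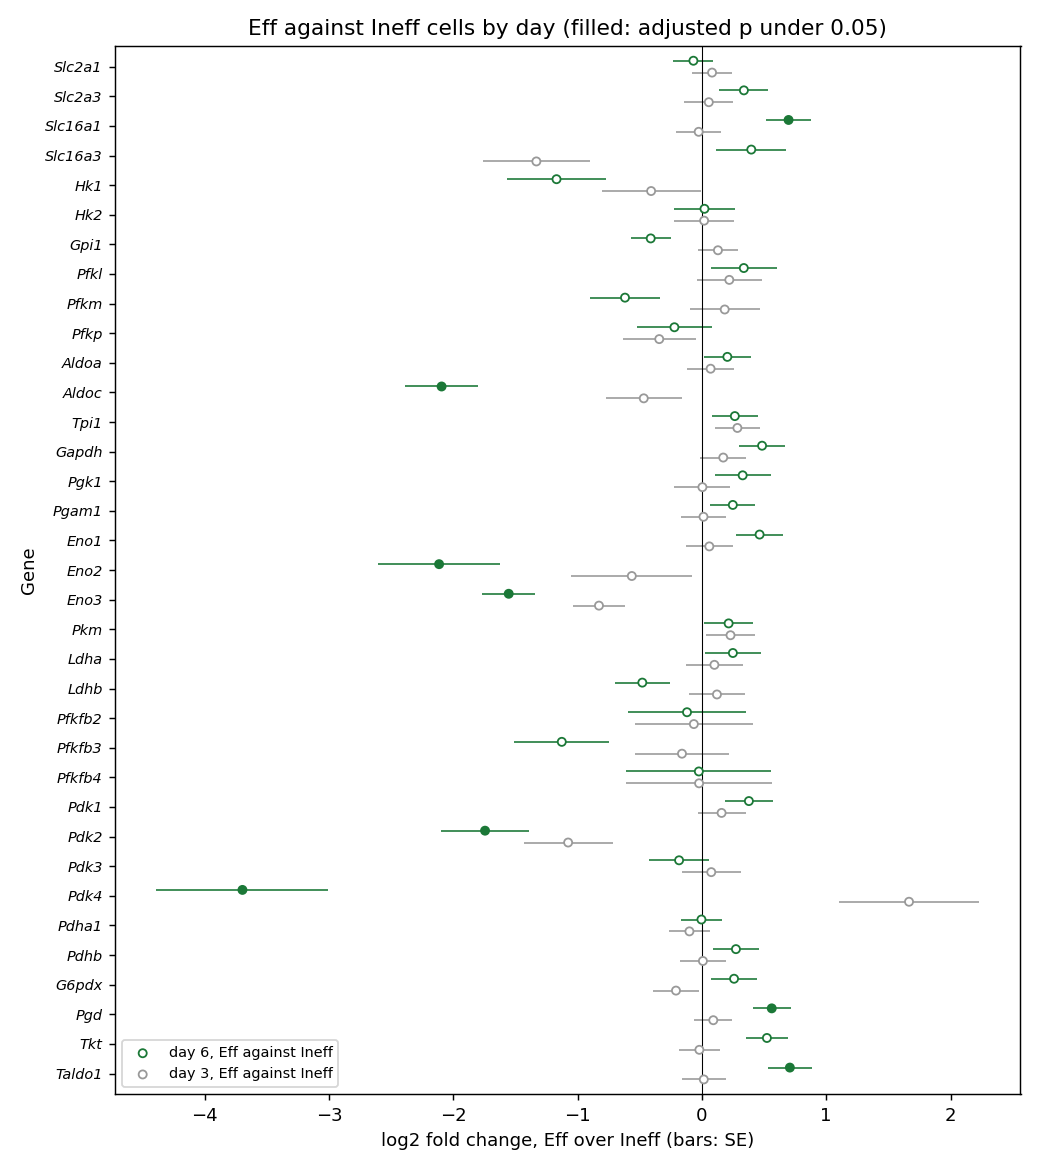
Log2 fold change of Eff over Ineff cells (horizontal axis; bars are SE) for each of the 35 genes on day 6 (green) and day 3 (grey), with filled points where the adjusted p was under 0.05. No grey point is filled; on day 6 Slc16a1, Pgd and Taldo1 lie to the right and Aldoc, Eno2, Eno3, Pdk2 and Pdk4 to the left.

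The change of the Eff against Ineff difference from day 3 to day 6 was tested as an interaction, and 0 of the 35 genes were called higher and 1 lower, against 0.296% and 1.09% of all genes (1.39% in all). This was Pdk4, with a log2 difference of -5.36 ± 0.90 (SE), adjusted p = 0.0194. It stood above d3_Ineff in d3_Eff and below d6_Ineff in d6_Eff, in every library. The call was lost without d3_Ineff replicate 1 or 2, d3_Eff replicate 2, d6_Ineff replicate 1 or 2, or d6_Eff replicate 2. Without either MEF replicate more of the 35 genes were called, as were more of all genes.

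In iPSC 25 of the 35 were higher than in d6_Eff and 0 lower by edgeR, against 13.6% of all genes called higher and 15.9% lower (29.6% in all). At an unadjusted p under 0.05 edgeR listed 27 of the 35, against 40.3% of all genes. DESeq2 also called 25 of them higher and 0 lower, and 5370 of all 16240 genes in either direction. The median log2 fold change was 1.25 for the 35 genes and 0 for all genes. All 4 transporters, 7 of 9 preparatory enzymes, 5 of 7 payoff enzymes and both lactate dehydrogenases were higher. Pdk4 (7.50 ± 0.67 (SE), adjusted p = 1.18e-05), Slc16a3 (4.97 ± 0.30 (SE), adjusted p = 9.54e-07) and Pfkp (4.87 ± 0.34 (SE), adjusted p = 2.27e-06) had the largest log2 fold changes. The d6_Eff libraries held 5 and 0 reads of Pdk4, so the size of its fold change is poorly determined. Pfkp carries the overlap with Pitrm1 described above. Not called were Hk1, Pfkm, Eno2, Eno3, Pfkfb2, Pfkfb4, Pdk3, Pdha1, G6pdx and Pgd. Of the 25 calls, 20 held under all alternatives. The other 5 were Slc16a1, Pdk2, Pdhb, Tkt and Taldo1, each lost without iPSC replicate 2 among other libraries (adjusted p up to 0.221).

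Isoform use was compared as the ratio of 2 genes within a library, in which depth and scaling cancel. An exact permutation test over all 10395 assignments of the 12 libraries to 6 groups of 2 was run for 9 pairs, with p adjusted over the 9. All 9 ratios differed among the groups (adjusted p = 0.000866 to 0.0221), by 5.30-fold to 1996-fold between the highest and the lowest group, picked by their values. The widest, Slc16a1 over Slc16a3, rests on d3_Eff libraries with few Slc16a3 reads: its log2 difference of 10.96 between d3_Eff and MEF was 10.29 without d3_Eff replicate 1, 11.64 without d3_Eff replicate 2 and 10.27 with 5 added to each count. Ratios of other gene pairs were not tested, and 59.5% of all genes tested singly differed among the groups. For shares, counts were divided by the length of the principal transcript. Among glucose transporters, Slc2a3 made up 5.74% ± 1.4 of the pair Slc2a3 and Slc2a1 in MEF, 31.6% ± 5.3 in d3_Eff, 32.1% ± 1.99 in d3_Ineff, 61.5% ± 1.81 in d6_Eff, 54.7% ± 1.3 in d6_Ineff and 54.5% ± 1.32 in iPSC (exact permutation, adjusted p = 0.00173). The ratio thus peaked in d6_Eff, although both genes were higher in iPSC. Which of them was more abundant per kilobase depended on the length used: with all annotated exons Slc2a3 made up 48.4% in d6_Eff and 41.3% in iPSC.

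Of the hexokinases, Hk2 made up 34.9% ± 9.01 of the pair Hk2 and Hk1 in MEF, 66.3% ± 0.753 in d3_Eff, 59.5% ± 1.9 in d3_Ineff, 64.5% ± 1.94 in d6_Eff, 44.4% ± 4.49 in d6_Ineff and 75.7% ± 1.23 in iPSC (exact permutation, adjusted p = 0.00115). Hk1, the constitutive form, was itself not called in any comparison, and its MEF libraries disagreed (182 and 55.3 CPM). With all annotated exons as the length, the share of Hk2 was 52.0% in MEF and 62.0% in d6_Ineff, so the order of the 2 genes there is not settled. The mean share was lowest in MEF and next lowest in d6_Ineff under either length, but libraries of these groups overlapped. By the principal transcript it was 41.3% in MEF replicate 2 and 41.2% in d6_Ineff replicate 2.

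The lactate dehydrogenase pair moved 1 way along the course. Ldhb made up 1.65% ± 0.0187 of the pair in MEF, 5.53% ± 0.553 in d3_Eff, 5.49% ± 0.138 in d3_Ineff, 11.0% ± 0.201 in d6_Eff, 17.0% ± 0.316 in d6_Ineff and 21.7% ± 0.771 in iPSC (exact permutation, adjusted p = 0.00115). Ldha stayed the more abundant gene in every library under either length. The 2 groups of day 3 do not differ beyond their spread, while the d6_Ineff libraries lay above the d6_Eff libraries.

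Phosphofructokinase, the main control point of glycolysis, has a liver (Pfkl), a muscle (Pfkm) and a platelet (Pfkp) isoform gene. Pfkm made up 10.6% ± 0.768 of the pair Pfkm and Pfkl in MEF, 34.2% ± 3.34 in d3_Eff, 34.6% ± 1.5 in d3_Ineff, 33.5% ± 1.89 in d6_Eff, 49.7% ± 5.3 in d6_Ineff and 6.04% ± 0.218 in iPSC (exact permutation, adjusted p = 0.00188). Pfkl had 485 and 265 CPM in MEF, 91.6 and 116 in d3_Eff, 89.4 and 88.8 in d3_Ineff, 141 and 159.9 in d6_Eff, 135 and 103 in d6_Ineff and 829.7 and 823 in iPSC, and Pfkm 47.0 and 22.9 CPM in MEF, 40.8 and 41.9 in d3_Eff, 38.2 and 34.6 in d3_Ineff, 51.4 and 65.9 in d6_Eff, 89.0 and 91.1 in d6_Ineff and 42.3 and 39.7 in iPSC. Pfkl was low in all 8 sorted libraries, whereas Pfkm was higher than MEF in d6_Ineff (1.35 ± 0.29 (SE), adjusted p = 0.00417). In d6_Ineff the share was 60.4% with all annotated exons. Pfkp made up 25.7% ± 1.75 of the pair Pfkp and Pfkl in iPSC and 6.14% ± 0.996 in d6_Eff, its highest and lowest groups (exact permutation, adjusted p = 0.0156). That call was lost when MEF replicate 2 and d6_Eff replicate 2 were both left out (adjusted p = 0.0891).

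**Figure D5:**
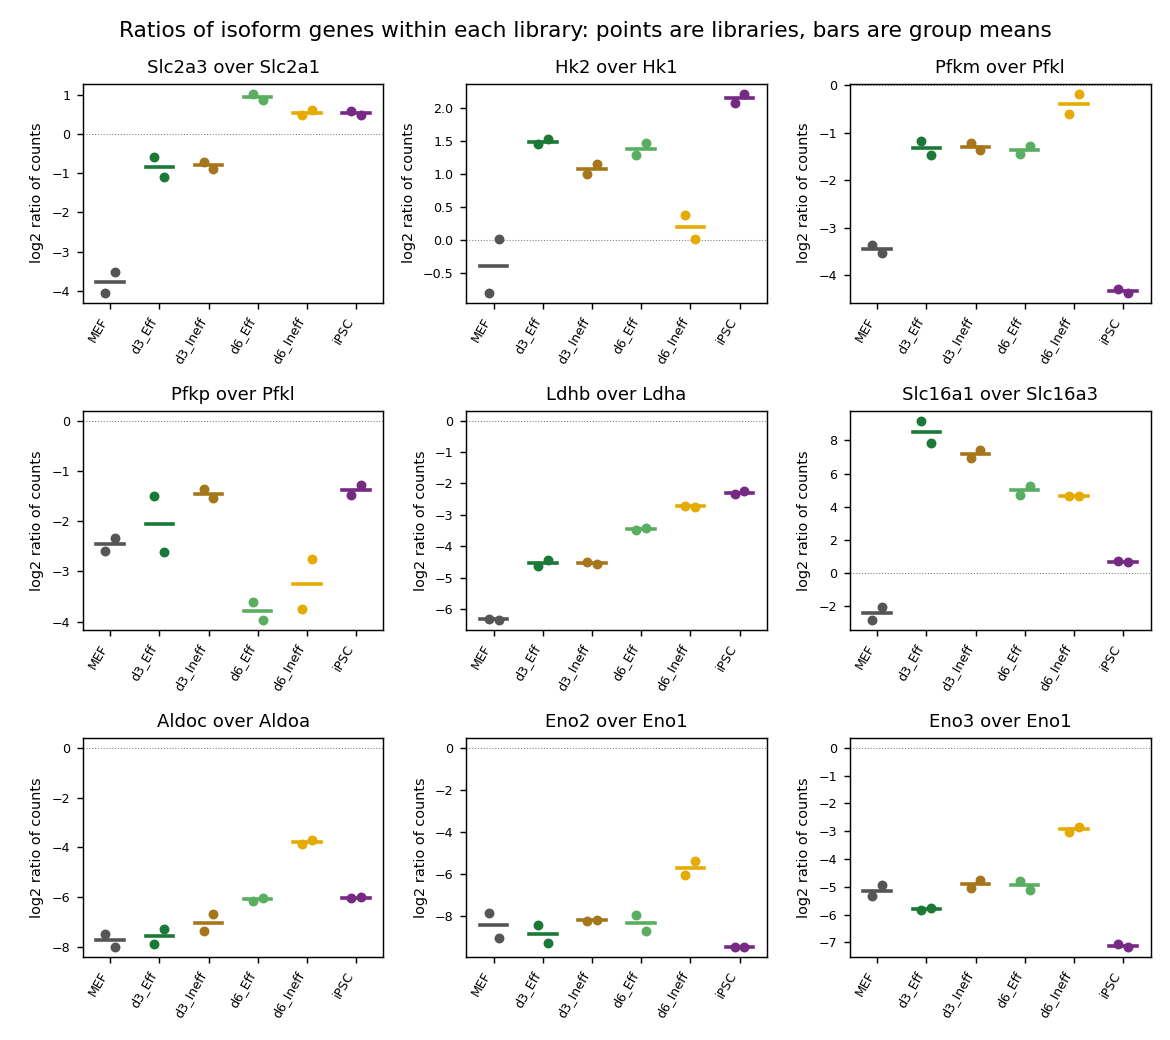
Log2 ratio of the counts of 2 isoform genes (vertical axes, not corrected for length) in each library, for the 9 pairs, with points for libraries and bars for group means. Slc16a1 over Slc16a3 spans the widest range, Ldhb over Ldha is lowest in MEF and highest in iPSC, and Aldoc over Aldoa, Eno2 over Eno1 and Eno3 over Eno1 are highest in d6_Ineff.

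Slc16a3 was the more abundant lactate transporter gene per kilobase in MEF, and Slc16a1 in every other group. Slc16a1 made up 15.5% ± 4.81 of the pair Slc16a1 and Slc16a3 in MEF, 99.7% ± 0.186 in d3_Eff, 99.3% ± 0.173 in d3_Ineff, 96.8% ± 0.807 in d6_Eff, 96.1% ± 0.0342 in d6_Ineff and 61.2% ± 0.327 in iPSC. The exact permutation p was 1e-04, the smallest this design can give (adjusted p = 0.000866). Minor isoforms peaked in d6_Ineff in 3 pairs. Aldoc made up 0.792% ± 0.0571 of the pair with Aldoa in d6_Eff and 3.77% ± 0.265 in d6_Ineff. Of the pairs with Eno1, Eno2 made up 0.23% ± 0.0821 in d6_Eff and 1.38% ± 0.441 in d6_Ineff, and Eno3 4.04% ± 0.676 in d6_Eff and 14.6% ± 1.1 in d6_Ineff. Over the 6 groups these 3 ratios had adjusted p of 0.0021, 0.0221 and 0.00173 (exact permutation).

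Genes that regulate the pathway, or share its regulators, were taken from lists of names. Of 12 HIF targets outside glycolysis, 10 were lower than MEF in d3_Eff, 10 in d3_Ineff, 9 in d6_Eff and 10 in d6_Ineff, against 18.6%, 15.0%, 21.7% and 15.2% of all genes in the same order. The medians of log2 fold change were -4.57, -3.97, -4.32 and -3.93. Bnip3, a mitophagy receptor, had 242 and 341 CPM in MEF, 13.1 and 14.5 in d3_Eff, 17.7 and 22.0 in d3_Ineff, 15.0 and 17.7 in d6_Eff, 28.2 and 26.2 in d6_Ineff and 303 and 256 in iPSC. All 8 sorted libraries lay below every MEF and iPSC library, as for Ldha and Pgk1. In iPSC 10 of the 12 were higher than in d6_Eff, against 13.6% of all genes, and 2 were higher and 5 lower than in MEF, against 26.0% and 26.7%. Hif1a, the oxygen-regulated HIF subunit, was at 334 and 367 CPM in MEF and between 106 and 160.2 in the other 10 libraries, and it remained lower in iPSC (-1.62 ± 0.19 (SE), adjusted p = 2.66e-05). HIF protein was not measured, and its part in these levels was not tested.

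Among 18 regulators, 9 were higher and 2 lower in iPSC than in MEF, against 26.0% and 26.7% of all genes. Myc had 86.9 and 51.9 CPM in MEF, 303 and 257 in d3_Eff, 280.2 and 232 in d3_Ineff, 240.4 and 238 in d6_Eff, 257 and 261 in d6_Ineff and 11.0 and 11.1 in iPSC, and Mycn, its relative of pluripotent cells, 0.31 and 0 CPM in MEF, 15.3 and 12.3 in d3_Eff, 6.12 and 7.65 in d3_Ineff, 86.6 and 91.3 in d6_Eff, 22.1 and 20.3 in d6_Ineff and 200.5 and 169.8 in iPSC. Every sorted library held more of the Myc transcript than the MEF and iPSC libraries, and Mycn was higher at each later stage. Myc and Mycn proteins were not measured, and their part in the levels of the glucose metabolism genes was not tested. The labels do not say whether Myc was among the introduced factors. Of 22 other glycolysis and transport genes tested out of 28 listed, 7 were higher and 6 lower in iPSC than in MEF, which is near the share of all genes. In d6_Eff 3 were higher and 9 lower than in MEF, against 20.9% and 21.7% of all genes. Pgm1, phosphoglucomutase, which links glycogen to glycolysis, was lower in d6_Eff than in MEF (-2.15 ± 0.17 (SE), adjusted p = 2.76e-06) and higher in iPSC than in d6_Eff (2.69 ± 0.17 (SE), adjusted p = 1.27e-06). Bsg, the chaperone of Slc16a1 and Slc16a3 proteins, was lower than MEF in d6_Eff (-1.61 ± 0.18) and in iPSC (-0.95 ± 0.17). Tigar, a phosphatase that steers glucose toward the pentose phosphate pathway, was higher in d6_Eff (1.37 ± 0.21) and in iPSC (2.00 ± 0.21) than in MEF.

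Of 9 other pentose phosphate genes tested, 3 were higher and 1 lower in iPSC than in MEF, against 26.0% and 26.7% of all genes. Prps1, which turns ribose 5-phosphate into the nucleotide precursor, was higher (2.39 ± 0.30 (SE), adjusted p = 6.18e-05), and H6pd, the enzyme of the endoplasmic reticulum, was lower (-2.12 ± 0.28 (SE), adjusted p = 7.78e-05). Of 9 other genes for the pyruvate dehydrogenase complex and mitochondrial pyruvate, 1 was higher and 2 lower in d6_Eff than in MEF, against 20.9% and 21.7% of all genes. The remaining core subunit genes Dlat, Dld and Pdhx were not called in any of the comparisons with MEF, named here after their values were seen. Pcx, pyruvate carboxylase, which feeds pyruvate to the citrate cycle, had 13.5 and 4.89 CPM in MEF, 121 and 129 in d3_Eff, 102 and 91.8 in d3_Ineff, 215 and 253 in d6_Eff, 166 and 190.2 in d6_Ineff and 20.6 and 26.6 in iPSC. It was higher than MEF in every later group and lower in iPSC than in d6_Eff (-3.31 ± 0.35 (SE), adjusted p = 4.03e-05). Of 12 gluconeogenesis and glycogen genes tested, 2 were higher and 5 lower in iPSC than in MEF, against the same 26.0% and 26.7%, with Ugp2, which makes the glycogen precursor, among the lower ones (-2.10 ± 0.26).

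Some values carry limits of the counting. Gapdh has 77 other genes, mostly pseudogenes, at least 95% identical to it over at least 300 bases, and the 40 of them in the tables held counts equal to 1.99% of its own. For Gpi1 the near-identical Gm1840 held 3.12%, and for Pgk1, Pgam1, Eno1, Ldha and Ldhb such copies held under 1%. Reads that fit a gene and its copy equally well are among the alignments that were not unique (up to 40.8% in a library) and entered no gene. Exons on the opposite strand also overlap those of Hk1, Slc2a1, Gpi1, Pfkm, Aldoa, Tpi1, Gapdh, Pfkfb2, Pdha1 and G6pdx. Reads that fit exons of more than 1 annotated gene are counted as ambiguous and enter no gene, so these counts may miss reads. Where the neighbour was absent from the annotation used, they may include its reads.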

How the data were processed

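The authors deposited 1 table of read counts per library, as whole numbers per Ensembl gene, and per the submitters' processing notes they used STAR 2.3.0, Picard 1.100 and HTSeq 0.6.0 with build mm9 and an annotation not given in the sources used here. Deposited counts are named as not stranded, although the library kit was a directional one, per the labels' protocols. Symbols, lengths and overlaps came from GENCODE M21. The 5 summary lines of each table stayed out of library sizes and tests.

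Counts were analysed with edgeR 4.0.16 in R 4.3.3: filterByExpr, TMM scaling, 1 quasi-likelihood fit of all 12 libraries with a mean per group (6 residual degrees of freedom, biological coefficient of variation 28.0%), and 11 contrasts adjusted over all 16240 genes. CPM are counts per 1000000 of the TMM-scaled library. Standard errors (SE) were taken as the log2 fold change over √F. Isoform ratios used counts plus 0.5. Near-identical copies were searched with BLAST 2.17.0. With 2 libraries a group, precision is limited by their spread more than by depth.

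The 18 alternatives were edgeR RLE and upper-quartile scaling, DESeq2 1.42.0, no filter on low counts, the replicate number as a block, MEF replicate 2 and d6_Eff replicate 2 both left out, and each library left out in turn. A lone library left in a group was then assumed to vary like the others. The length over all annotated exons was added after seeing the data. The 35 genes, the lists and the tests were chosen with earlier results of these data known. Named genes are the 35 and, of the other lists, up to 4 called genes per direction with the smallest adjusted p in the comparison described, with the exceptions stated.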

Additional observations from a re-analysis of the deposited data

Results flagged for a closer look

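Pdk4 was the 1 gene of the 35 called for a change of the Eff against Ineff difference between day 3 and day 6. Its interaction was -5.36 on the log2 scale (adjusted p = 0.0194 by edgeR's quasi-likelihood test). Of all genes tested, 1.39% were called. At an unadjusted p under 0.05 there were 9 of the 35, against 12.3% of all genes. Pdk4 had 0.997 and 1.87 CPM in d3_Eff and 0.525 and 0.362 in d3_Ineff, and 0.223 and 0 in d6_Eff and 1.74 and 1.64 in d6_Ineff. All 8 libraries held 41 reads of it or fewer, and d6_Eff replicate 2 held 0. Over the 18 alternatives the adjusted p ran from 8.12e-08 to 0.102, and the direction was the same in all of them.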

How the results depend on the processing

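Of all values of a gene in a comparison, 35 genes in 11 comparisons, 329 to 379 stayed on their side of the threshold with the same direction under each alternative. Reversed were 2 values of Hk1, whose MEF libraries disagree: without MEF replicate 1 its log2 fold change was 0.63 in iPSC over MEF (adjusted p = 0.0126; lowest -1.16, without MEF replicate 2) and 0.84 in d3_Ineff over MEF (adjusted p = 0.00254; lowest -0.97, without MEF replicate 2). With each library left out in turn, the number of called genes ran from 17 to 26 in iPSC over MEF, 19 to 27 in d3_Eff over MEF, 15 to 28 in d3_Ineff over MEF, 19 to 28 in d6_Eff over MEF and 17 to 28 in d6_Ineff over MEF. It ran from 0 to 1 in d3_Eff over d3_Ineff, 4 to 16 in d6_Eff over d6_Ineff, 3 to 14 in d6_Eff over d3_Eff, 1 to 19 in d6_Ineff over d3_Ineff, 20 to 30 in iPSC over d6_Eff and 0 to 7 for the interaction. The number of all genes called also varied across these fits. With DESeq2 the count was 1 in d3_Eff over d3_Ineff, 14 in d6_Eff over d6_Ineff, 17 in d6_Ineff over d3_Ineff and 4 for the interaction. With no filter it was 3 for the interaction. DESeq2 called 445, 3402, 1634 and 833 of all genes in the same order, and the fit with no filter 832 for the interaction. The main fit called 65, 2375, 717 and 225. Leaving out MEF replicate 2 and d6_Eff replicate 2 together gave 1 in d3_Eff over d3_Ineff, 18 in d6_Ineff over d3_Ineff and 4 for the interaction, and a Pfkp over Pfkl log2 difference of 2.23 (adjusted p = 0.0891); the cause was not tested. The numbers do not pair the samples (7 of 15 correlations of replicate differences exceeded 0.1, from -0.232 to 0.494), and with the replicate block 378 values kept their side, 6 lost the call and 1 gained it. Low counts limit Pdk4, Pfkfb2, Pfkfb4 and Eno2 most.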
